A study of Homo sapiens with 3 samples.

Results

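The immunoglobulin lambda locus lies on chromosome 22 just before BCR, the gene that is joined to ABL1 in the BCR-ABL1 fusion of K562 cells. Its members here are all peaks of the codanin-1 and GATA1 lists whose midpoint fell from 22000000 up to 23522000 (hg19), a stretch of 1522 kb. They numbered 381 of the 14365 peaks for codanin-1 and 261 of the 5164 for GATA1, 642 of 19529 regions in all. The stretch was divided by position into a V gene part from 22.38 to 23.2 Mb (820 kb), a left flank before it (380 kb) and a right flank after it up to BCR (322 kb).

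The peaks come from chromatin immunoprecipitation and sequencing (ChIP-seq) in K562, an established human erythroleukaemia line. Codanin-1 was precipitated with Cod1, a home-made antibody to residues 123 to 142 of the protein. GATA1 was precipitated with the antibody N6, which the submitters used as a control together with rabbit IgG. In each case 30000000 cells were fixed with 1% formaldehyde for 10 minutes. Each antibody had 1 library, so there is no replicate error for any value and no test between antibodies or parts. Where a 95% interval is given it covers counting error only, and neighbouring peaks are not independent. A peak list of the IgG library was not analysed here, and no sequence motif was looked for, so each peak stands for a call by the authors' software and not for a proven site of binding.

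The lambda locus encodes one of the light chains of antibodies. A long array of V segments is followed by pairs of J and C segments, and developing B cells join 1 V segment to 1 J segment with the RAG recombinase. In the RefSeq table of GRCh38.p14 the array holds 37 V segments and 36 V segment pseudogenes, followed by 7 J segments. Protein-coding genes that are not part of the antibody also sit in the array, in the order VPREB1 (part of the surrogate light chain of B cell precursors), ZNF280B and ZNF280A (zinc finger proteins), PRAME (an antigen expressed in many tumours) and GGTLC2. Genes before the array include PPM1F (a protein phosphatase) and TOP3B (a topoisomerase), and between the J and C segments and BCR lie RSPH14, GNAZ (a G protein subunit) and RAB36 (a small GTPase). That table is of another build than the peaks, so it gives the order of genes and no peak is assigned to any of them. GATA1 is a transcription factor of the red cell and megakaryocyte lineages. Codanin-1, the product of CDAN1, a gene mutated in an inherited anaemia with abnormal erythroblast chromatin, binds ASF1, a chaperone of histones.

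Codanin-1 peaks ran through the V gene part at nearly the density of the flanks, whereas GATA1 peaks were sparse in it. The V gene part held 195 codanin-1 peaks and the flanks held 186, which is 238 (95% exact Poisson interval 206 to 274) and 265 (228 to 306) peaks per Mb. The ratio of the V gene part to the flanks was 0.90 (95% exact interval 0.73 to 1.10). For GATA1 the V gene part held 56 peaks and the flanks 205, or 68.3 (51.6 to 88.7) and 292 (253 to 335) peaks per Mb. That ratio was 0.23 (0.17 to 0.32). The odds of lying in the V gene part and not in the flanks were 3.84 times as high for a codanin-1 peak as for a GATA1 peak (95% exact conditional interval 2.65 to 5.59). List length depends on sequencing depth, which is unknown, and the part of depth and threshold in this ratio was not tested.

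The flanks were not alike. The left flank held 73 codanin-1 peaks (192 per Mb) and 71 GATA1 peaks (187 per Mb), and the right flank 113 (351 per Mb) and 134 (416 per Mb). Against the left flank alone the V gene part had 1.24 times the codanin-1 density (0.94 to 1.64), and against the right flank alone 0.68 times (0.53 to 0.86). The interval against the left flank includes equal density and the one against the right flank does not. For GATA1 both intervals lay below 1, with 0.37 times the density of the left flank (0.25 to 0.53) and 0.16 times that of the right flank (0.12 to 0.23). Without the V gene part window from 22950001 to 23000000, which was chosen after its values were seen, the GATA1 ratio to both flanks was 0.16. Without the flank window richest in GATA1, chosen in the same way, it was 0.29 (0.21 to 0.39).

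Set side by side, the lists gave 3.48 codanin-1 peaks for each GATA1 peak in the V gene part and 0.907 in the flanks. In the 3 Mb before the locus, from 19 to 22 Mb, which are part of the same crowded stretch of chromosome 22, the number was 1.07, and in the rest of both lists it was 2.85. The V gene part therefore had the higher ratio than the sequence on either side of it, and the odds against those 3 Mb were 3.25 (2.34 to 4.56). Over the whole locus codanin-1 peaks were 1.34 times as dense as in those 3 Mb (1.18 to 1.53), and GATA1 peaks 0.99 times (0.85 to 1.15).

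**Figure D1:**
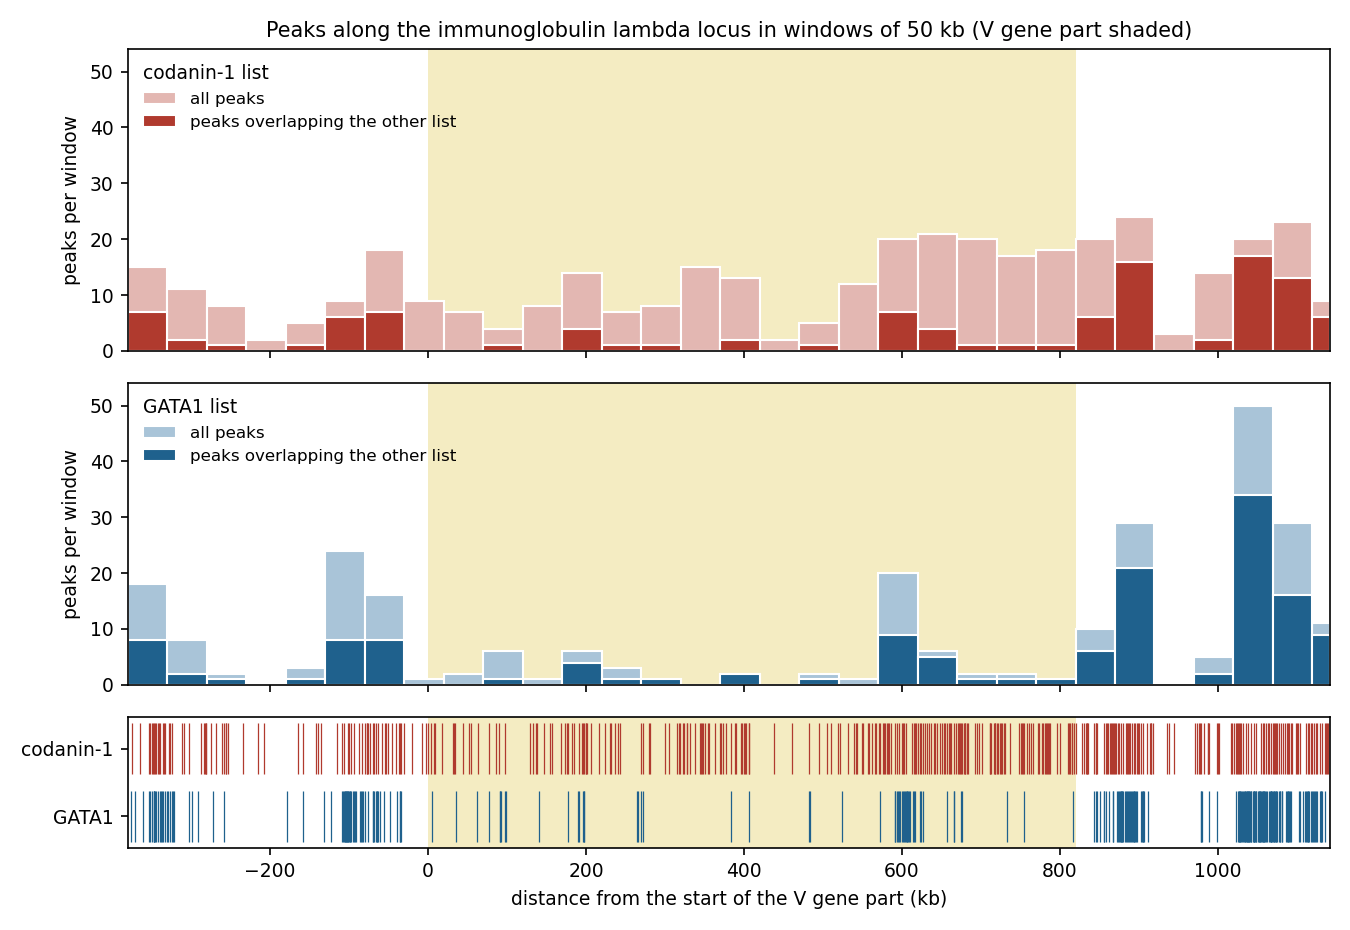
Number of codanin-1 peaks (top) and GATA1 peaks (middle) in windows of 50 kb, with the peaks that overlap the other list in the darker colour, and the midpoint of every peak (bottom), against distance from the start of the V gene part in kb. The V gene part is shaded, and the last window is 22 kb long. GATA1 windows reach 50 peaks in the right flank and, apart from 1 window of 20, stay at 6 or fewer in the shaded part.

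Windows of 50 kb show where the lists parted. Over the 16 windows inside the V gene part the codanin-1 count ran from 2 to 21 with a median of 12.5, and the GATA1 count from 0 to 20 with a median of 2. Codanin-1 peaks outnumbered GATA1 peaks in 14 of these 16 windows, against 8 of the 13 windows inside the flanks. The whole lists hold 2.78 codanin-1 peaks for each GATA1 peak, so an excess of codanin-1 peaks is usual. GATA1 had 2 peaks or fewer in 11 of the 16 V gene windows and in 3 of the 13 flank windows. The window from 22700001 to 22750000, for example, held 15 codanin-1 peaks and 0 GATA1 peaks.

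A single window supplied much of the GATA1 signal of the V gene part. From 22950001 to 23000000 there were 20 codanin-1 peaks and 20 GATA1 peaks, so 20 of the 56 GATA1 peaks lay in 50 kb. In the remaining 770 kb there were 175 codanin-1 peaks (227 per Mb) and 36 GATA1 peaks (46.8 per Mb). The codanin-1 list was also uneven within the V gene part. Its last 250 kb, from 22950001 to 23200000, held 96 codanin-1 peaks (384 per Mb), and the 570 kb before it held 99 (174 per Mb). The GATA1 list had 31 and 25 peaks in these stretches (124 and 43.9 per Mb). After the window rich in GATA1, the last 200 kb kept 76 codanin-1 peaks (380 per Mb) beside 11 GATA1 peaks (55 per Mb). These stretches were delimited after their values were seen.

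Both lists were densest in the right flank. The window from 23250001 to 23300000 had the most codanin-1 peaks, 24, with 29 GATA1 peaks, and codanin-1 peaks covered 41.5% and GATA1 peaks 28.1% of its bases. The codanin-1 window next in rank, from 23450001 to 23500000, held 23 codanin-1 and 29 GATA1 peaks. GATA1 was most crowded from 23400001 to 23450000, with 20 codanin-1 and 50 GATA1 peaks that covered 54.2% and 36.8% of the bases. Between these lay a window with 3 codanin-1 peaks and 0 GATA1 peaks. The emptiest windows by the codanin-1 list, with 2 peaks each, ran from 22150001 to 22200000 in the left flank and from 22800001 to 22850000 in the V gene part, and both had 0 GATA1 peaks. The GATA1 list had 4 windows of 0 peaks among 30 full windows.

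Across the 30 full windows the counts of the lists had a Pearson's r of 0.56 and a Spearman's rho of 0.59. Within the 16 V gene windows the values were 0.37 and 0.24, and within the 13 flank windows 0.72 and 0.85. Neighbouring windows are not independent and every window shares the same 2 libraries and whatever background the peak caller used, so these values are a description.

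Spacing was compared by the distance from one midpoint to the next. The median codanin-1 distance was 2518 bp in the V gene part (quartiles 1531 to 5066) and 2157 bp in the flanks (1469 to 3740). Their ratio was 1.17 (interval from the exact limits of each median, 0.84 to 1.57). For GATA1 the median was 2302 bp in the V gene part (969 to 21000) and 1139 bp in the flanks (765 to 2044), with a ratio of 2.02 (1.10 to 7.63). Against the left flank alone the GATA1 ratio was 1.61 (0.60 to 7.16), and after merging of peaks within 1 kb it was 1.86 (0.47 to 6.23), so those intervals included 1.

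Codanin-1 had 19 of 194 distances under 1 kb in the V gene part (9.79%) and 20 of 184 in the flanks (10.9%), with 5 and 3 over 20 kb. In the GATA1 list close neighbours and long empty stretches occurred together. Of its 55 distances in the V gene part, 15 (27.3%) were under 1 kb and 14 were over 20 kb, and those 14 took up 672 kb of the 820 kb. Of its 203 distances in the flanks, 82 (40.4%) were under 1 kb and 4 were over 20 kb. The shortest distance between codanin-1 midpoints in the locus was 525.5 bp and between GATA1 midpoints 354 bp.

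The longest distance between neighbouring codanin-1 midpoints was 43.9 kb in the left flank, from a peak that ended at 22172074 to one that started at 22215768, and 1 GATA1 peak lay in between. The next longest was 31.9 kb in the V gene part, from 22786803 to 22818387, with 0 GATA1 peaks in between. For GATA1 the longest distance was 111 kb in the V gene part, from 22652490 to 22763496, and 26 codanin-1 peaks lay in between. Its next longest was 80.1 kb in the left flank, from 22121470 to 22201500, with 6 codanin-1 peaks in between. The longest stretches without codanin-1 peaks thus held 1 GATA1 peak or none, while those without GATA1 peaks held 26 and 6 codanin-1 peaks.

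**Figure D2:**
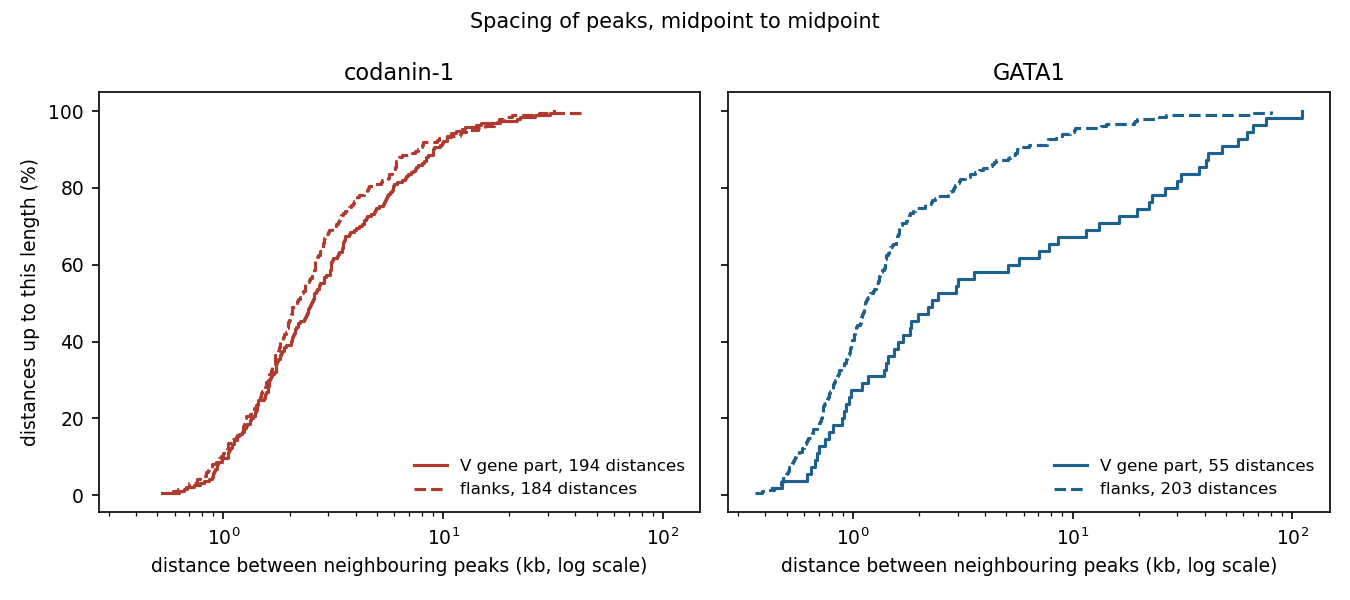
Cumulative share of distances between neighbouring peak midpoints (kb, log axis) for codanin-1 (left) and GATA1 (right), in the V gene part (solid) and the flanks (dashed). The codanin-1 curves run close together, with medians of 2518 and 2157 bp. The GATA1 curves are already apart at 1 kb (27.3% and 40.4% of distances) and further apart above it, with upper quartiles of 21000 and 2044 bp.

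Peaks of the locus had a larger median width than the rest of their lists, as did their neighbours on chromosome 22. The median width was 371 bp for the 381 codanin-1 members (quartiles 203 to 650) against 217 bp in the rest of the list, and 244 bp for the 261 GATA1 members (142 to 412) against 164 bp. The 101 bp minimum of the codanin-1 list was met by 10 members (2.62%) and by 17.3% of the other peaks. The 60 bp minimum of the GATA1 list was met by 9 members (3.45%) and by 11.7% of the other peaks. Codanin-1 peaks of at least 1000 bp made up 12.6% of the members (48 peaks) and 1.17% of the rest (164 peaks), whereas for GATA1 these shares were 2.68% (7 peaks) and 2.45% (120 peaks). In the 3 Mb before the locus codanin-1 peaks had a median width of 323 bp and GATA1 peaks one of 198 bp, and over chromosome 22 outside the locus these medians were 306 and 191 bp.

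Within the locus the widest peaks were those of the right flank. Codanin-1 peaks had a median width of 330 bp in the V gene part (191 to 540), 333 bp in the left flank (170 to 637) and 479 bp in the right flank (272 to 1059). The V gene part to right flank ratio was 0.69 (0.46 to 0.96), and the ratio to the left flank was 0.99 (0.66 to 1.67). Peaks of at least 1000 bp numbered 12 of 195 in the V gene part (6.15%), 5 of 73 in the left flank (6.85%) and 31 of 113 in the right flank (27.4%). GATA1 medians were 204.5 bp in the V gene part, 249 bp in the left flank and 260 bp in the right flank, and the ratio of the V gene part to both flanks, 0.80, had limits that included 1 (0.59 to 1.12). The 7 GATA1 members of at least 1000 bp all lay in the right flank.

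The 5 widest codanin-1 members were in the right flank and each overlapped a GATA1 peak. They ran from 23420314 to 23423804 (3491 bp, 3.54-fold), 23258758 to 23262053 (3296 bp, 4.08-fold), 23439761 to 23442808 (3048 bp, 3.53-fold), 23433924 to 23436512 (2589 bp, 3.58-fold) and 23255892 to 23258189 (2298 bp, 3.87-fold). The 5 widest GATA1 members were there as well and each overlapped a codanin-1 peak. Their positions were 23270522 to 23272216 (1695 bp), 23444124 to 23445769 (1646 bp), 23499870 to 23501316 (1447 bp), 23264456 to 23265778 (1323 bp) and 23260130 to 23261301 (1172 bp), with fold enrichments from 3.87 to 4.31. The widest members of both lists thus fell in the 322 kb before BCR. Of all peaks of the right flank 53.1% (codanin-1) and 65.7% (GATA1) overlapped, against 6.60% and 20.2% in the whole lists. A wide peak in a crowded stretch has more bases in which to meet a partner.

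**Figure D3:**
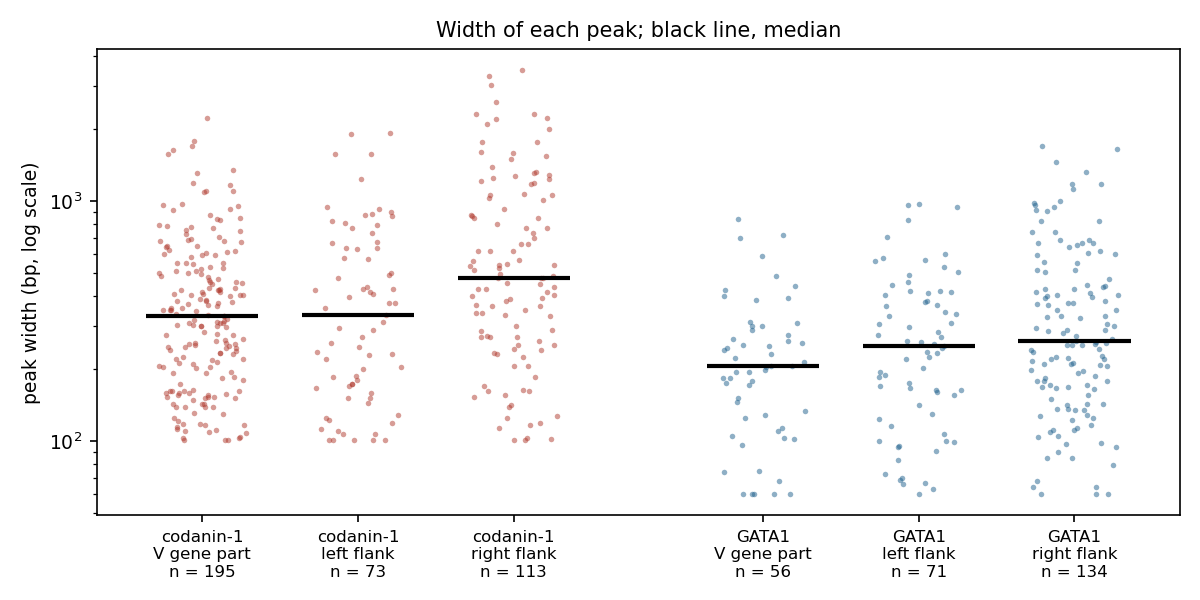
Width in bp (log axis) of every codanin-1 peak (left) and GATA1 peak (right) in the V gene part, the left flank and the right flank, with the median as a black line. Codanin-1 medians are 330, 333 and 479 bp, and peaks above 2000 bp are nearly all in the right flank (9 of 10).

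Overlap between the lists was lower for codanin-1 peaks of the V gene part than for those of the flanks. In the V gene part 24 of 195 codanin-1 peaks shared at least 1 bp with a GATA1 peak (12.3%, 95% exact interval 8.05 to 17.8), and in the flanks 84 of 186 (45.2%, 37.9 to 52.6). In the whole codanin-1 list the share was 6.60%. The odds of overlap in the V gene part were 0.17 times those in the flanks (0.097 to 0.29). They were 0.29 times those in the left flank alone, where 24 of 73 peaks overlapped, and 0.12 times those in the right flank alone, where 60 of 113 did. GATA1 peaks covered 1.65% of the bases of the V gene part and 10.3% of those of the flanks. The share of codanin-1 peaks that overlap depends on this coverage, and its part in the difference was not tested.

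Counted from the GATA1 side, the difference was within counting error. In the V gene part 27 of the 56 GATA1 peaks met a codanin-1 peak (48.2%, 34.7 to 62.0), and in the flanks 116 of 205 (56.6%, 49.5 to 63.5). The whole GATA1 list had 20.2%. The odds ratio of the V gene part over the flanks was 0.71 (0.38 to 1.35), over the left flank 1.43 (0.66 to 3.08) and over the right flank 0.49 (0.25 to 0.96). The interval against both flanks together includes equal odds, and it does not show that the shares were alike. Codanin-1 peaks covered 10.2% of the bases of the V gene part and 17.0% of those of the flanks.

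Over the whole locus 108 of 381 codanin-1 members (28.3%, 23.9 to 33.2) and 143 of 261 GATA1 members (54.8%, 48.5 to 60.9) overlapped. In the 3 Mb before the locus the shares were 23.4% (20.0 to 27.2) and 27.8% (24.0 to 31.8). The odds ratio of the locus over those 3 Mb was 1.29 for codanin-1 (0.95 to 1.76) and 3.15 for GATA1 (2.28 to 4.35). For the codanin-1 list the V gene part and the flanks lay on opposite sides of those 3 Mb, with odds ratios of 0.46 (0.27 to 0.74) and 2.69 (1.87 to 3.87). For the GATA1 list both lay above them, with odds ratios of 2.42 (1.33 to 4.39) and 3.39 (2.39 to 4.81). GATA1 peaks covered 4.16% of the bases of those 3 Mb, between the V gene part (1.65%) and the flanks (10.3%). Codanin-1 peaks covered 7.67% of them, below the V gene part (10.2%) and the flanks (17.0%). The part of coverage in these odds ratios was not tested.

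**Figure D4:**
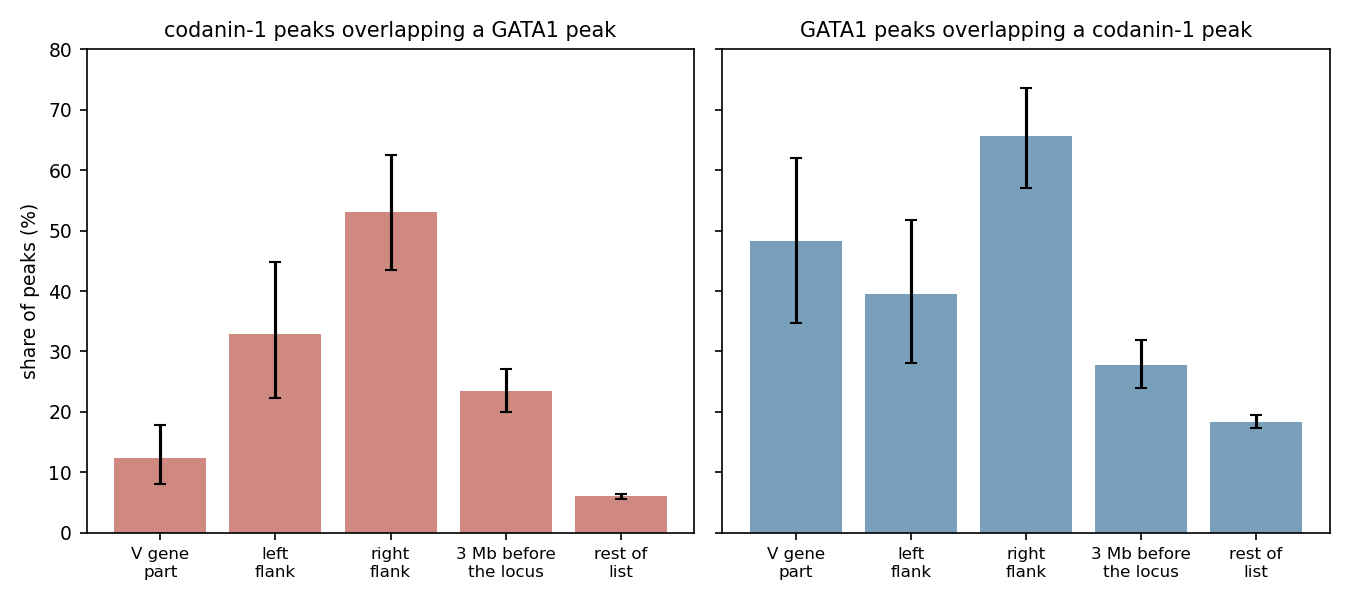
Share of codanin-1 peaks with a GATA1 overlap (left) and of GATA1 peaks with a codanin-1 overlap (right), in the V gene part, the left flank, the right flank, the 3 Mb before the locus and the rest of the list, with 95% exact intervals. The codanin-1 share is 12.3% in the V gene part, 32.9% in the left flank and 53.1% in the right flank. The GATA1 share is 48.2%, 39.4% and 65.7% in the same order.

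Overlap was also counted by width class, with each list's members in the locus cut by width into 3 classes of about equal size. Among codanin-1 peaks up to 248 bp, 6 of 71 overlapped in the V gene part and 13 of 56 in the flanks (8.45% and 23.2%). For middle widths, up to 522 bp, the numbers were 8 of 73 and 18 of 54. Among wider peaks they were 10 of 51 and 53 of 76 (19.6% and 69.7%). The intervals of the 2 parts did not overlap in the widest class (9.82 to 33.1 against 58.1 to 79.8) or in the middle class (4.85 to 20.5 against 21.1 to 47.5), and overlapped in the narrow class (3.16 to 17.5 against 13.0 to 36.4). The wider codanin-1 classes had the higher shares in both parts, but in the V gene part the intervals of the 3 classes overlapped. A wider peak has more bases in which to meet a partner. Shares per width class were not computed for the whole list. For GATA1, with classes at 177 and 341 bp, the narrow, middle and wide shares ran the other way in the V gene part, at 12 of 21, 11 of 25 and 4 of 10 (57.1%, 44% and 40%), with intervals that overlap (34.0 to 78.2, 24.4 to 65.1 and 12.2 to 73.8). In the flanks the GATA1 shares were 29 of 68, 32 of 60 and 55 of 77 (42.6%, 53.3% and 71.4%).

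Distances to the nearest partner, like the overlap shares, depend on how dense the partner list is. They are therefore not a result separate from the densities above. A codanin-1 peak of the V gene part was a median of 6542 bp from the nearest GATA1 peak (quartiles 1956 to 17606), and one of the flanks 153.5 bp (0 to 2357). From a GATA1 peak to the nearest codanin-1 peak the median was 58.5 bp in the V gene part (0 to 930) and 0 bp in the flanks (0 to 400). All 56 GATA1 peaks of the V gene part had a codanin-1 peak within 10 kb, as did 204 of 205 in the flanks. The share was 61.4% in the whole GATA1 list and 99.0% in the 3 Mb before the locus, so it was not particular to the locus. Conversely, 122 of 195 codanin-1 peaks of the V gene part (62.6%) and 176 of 186 in the flanks (94.6%) had a GATA1 peak within 10 kb.

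The 143 overlapping pairs shared a median of 196 bp. Pairs of the V gene part, 27 in number, shared 110 bp (quartiles 64.5 to 180) and the 116 pairs of the flanks 228.5 bp (108.5 to 402). The GATA1 peak lay wholly inside the codanin-1 peak in 10 of the 27 pairs of the V gene part and in 52 of the 116 pairs of the flanks. The reverse held in 0 and 6 pairs. In the V gene part 3 codanin-1 peaks met more than 1 GATA1 peak, and in the flanks 22 did, with up to 4 GATA1 peaks under 1 codanin-1 peak.

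The 5 pairs with the longest shared stretch were all in the right flank. At 23444424 to 23445725 a codanin-1 peak (3.86-fold) lay wholly within a GATA1 peak (4.12-fold) and shared its full 1302 bp. The codanin-1 peak from 23270805 to 23271989 (3.38-fold) was likewise inside the widest GATA1 member (3.93-fold) and shared 1185 bp. The remaining pairs shared 1172, 1059 and 999 bp, and their codanin-1 peaks started at 23258758, 23264720 and 23439761. Among these 5 pairs codanin-1 fold enrichments ran from 3.38 to 4.08 and GATA1 fold enrichments from 3.93 to 4.31.

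Among called peaks, the authors' fold enrichment per peak had near-equal medians in the V gene part and the flanks. The median codanin-1 fold enrichment was 3.60 in the V gene part (quartiles 3.34 to 3.84) and 3.59 in the flanks (3.39 to 3.85), a ratio of 1.00 (0.97 to 1.03). The median GATA1 fold enrichment was 3.94 (3.77 to 4.07) and 3.93 (3.76 to 4.11), also a ratio of 1.00 (0.97 to 1.03). The GATA1 peaks called in the V gene part were thus fewer, at a median fold near that of the flanks. Median −log10 q was 1.69 in the V gene part and 1.73 in the flanks for codanin-1, and 1.46 and 1.55 for GATA1.

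Members of the locus had a lower median fold enrichment than the rest of their own list. The codanin-1 median was 3.59 in the locus, 3.79 in the 3 Mb before it and 3.98 in the rest of the list, and the matching −log10 p medians were 5.01, 4.80 and 4.91. The GATA1 median was 3.93, 4.16 and 4.20, with −log10 p medians of 5.27, 5.26 and 5.48. A fold of at least 4 was reached by 62 of the 381 codanin-1 members (16.3%) and by 47.9% of the rest of the list. For GATA1 it was reached by 100 of 261 members (38.3%) and 73.9% of the rest. By −log10 q the lists differed: the share with 2 or more was 29.7% of the codanin-1 members and 22.7% of the rest of that list, but 16.5% of the GATA1 members and 27.6% of the rest. Values of 5 or more were held by 1 of 381 codanin-1 members and 26 of 13984 other peaks, and by 0 of 261 GATA1 members and 272 of 4903 other peaks. The copy number of the locus in these cells was not measured here, and its part in fold and peak density was not tested.

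**Figure D5:**
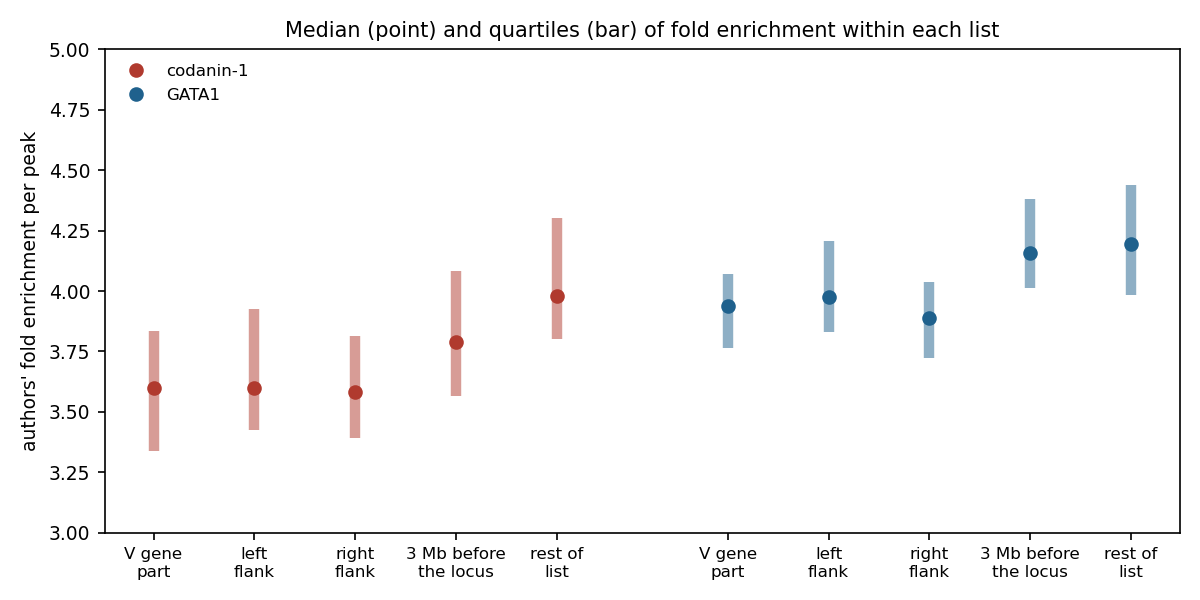
The authors' fold enrichment per peak (axis from 3 to 5) for codanin-1 (left) and GATA1 (right) in the V gene part, the left flank, the right flank, the 3 Mb before the locus and the rest of each list, as median (point) and quartiles (bar). Medians of the 3 parts of the locus are 3.58 to 3.60 for codanin-1 and 3.89 to 3.97 for GATA1, below the rest of each list (3.98 and 4.20).

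Few members stood out by fold. The highest codanin-1 member, in the right flank from 23283405 to 23283521, had a fold enrichment of 5.29 and overlapped a GATA1 peak. It was followed by a peak of the V gene part from 23104953 to 23105251 (5.18-fold), which had the highest −log10 q of the locus, 5.22, and lay 7410 bp from the nearest GATA1 peak. The next were in the right flank from 23240332 to 23240871 (5.04-fold, no overlap) and from 23276482 to 23278570 (4.85-fold, overlapping), and in the V gene part from 22659787 to 22660049 (4.78-fold, no overlap). The last of these lay in the longest stretch without GATA1 peaks.

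For GATA1 the highest member was in the V gene part, from 22986347 to 22986414, inside the window with 20 GATA1 peaks. It had a fold enrichment of 4.97 and a −log10 q of 3.34, with 863 bp to the closest codanin-1 peak. The others were in the left flank from 22277742 to 22277840 (4.77-fold) and from 22311479 to 22311890 (4.71-fold), and in the right flank from 23452343 to 23452672 (4.76-fold, overlapping) and from 23287079 to 23287142 (4.76-fold). Overlap was seen for 2 of the 5 codanin-1 members with the highest fold and for 1 of these 5 GATA1 members. The shares over all members were 28.3% and 54.8%, and over the whole lists 6.60% and 20.2%.

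In the locus, overlapping codanin-1 peaks had the higher fold enrichment, a median of 3.69 (quartiles 3.53 to 3.91) against 3.55 (3.32 to 3.79) for those without a GATA1 peak. In the rest of the list the order was the opposite, 3.63 (3.16 to 4.02) for overlapping and 3.99 (3.83 to 4.32) for other peaks. The V gene part had medians of 3.68 for overlapping and 3.57 for other peaks, and the flanks 3.70 and 3.50. In the 3 Mb before the locus they were 3.85 and 3.76, in the same order as in the locus. GATA1 peaks of the locus had medians of 3.95 (overlapping) and 3.88 (others), against 4.07 and 4.22 in the rest of that list. The quartile ranges of overlapping and other peaks overlapped in each of these groups. The difference of direction in fold between the locus and the rest was not tested. By median −log10 q, overlapping peaks were higher in the locus and in the rest of both lists. For codanin-1 the medians were 1.81 against 1.67 in the locus and 1.78 against 1.59 in the rest. For GATA1 they were 1.59 against 1.47 and 1.91 against 1.59. In the V gene part the codanin-1 medians were 1.68 and 1.69, and in the flanks 1.85 and 1.62.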

How the data were processed

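BWA, MACS2 and the build hg19 appear, without version or role, in the submitters' processing notes. Not given in the sources used here are the background library, the threshold, any pooling and any filter on reads. Each of the 2 deposited lists has 9 columns and no header. The fold enrichment (a ratio), the −log10 of the p-value and the −log10 of the q-value are the authors' deposited values per peak. The deposited score is the whole part of 10 times −log10 q and was not used. There are no read counts, so depth is unknown and fold enrichments were compared within a list only. V segments resemble one another, and how reads with several matches were handled is not known.

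Members were taken by midpoint. Positions are written from 1. Overlap means at least 1 bp, with partners from the whole lists. Spacing was measured between midpoints of the same part. Shares carry exact (Clopper-Pearson) and densities exact (Poisson) 95% intervals, density and odds ratios exact conditional ones. No p-value was computed, since each antibody has 1 library. Functions were tested on simulated data. Named members are, per list, the 5 highest in fold, the 5 widest and the 2 longest distances, the 5 pairs sharing most bases, and the 2 densest and emptiest windows. The members and all comparisons were chosen with earlier results of these data known, and the comparison of odds between the lists and the 3 Mb before the locus were added after seeing the values. Alternatives concerned thresholds, edges, width, merging and overlap rules. Tools were Python 3.11.15, numpy 2.4.6, scipy 1.17.1, pandas 2.3.3 and matplotlib 3.10.9.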

Additional observations from a re-analysis of the deposited data

How the results depend on the processing

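Of 124 alternative values, 96 stayed within the interval of the main value and 28 moved outside it. The overlap shares of the whole locus could not move when the edges of the V gene part were shifted, because the locus stayed the same. Some main intervals are wide, so that a GATA1 spacing ratio of 6.72 still counts as within. The tally is therefore not a measure of stability. The codanin-1 density ratio of the V gene part over the flanks was 1.24 with the left flank alone, 0.678 with the right flank alone, 1.13 with peaks within 1 kb merged and 0.596 by bases covered. The GATA1 ratio was 0.366, 0.164, 0.434 and 0.16 in the same order. It was 0.16 without the V gene window richest in GATA1 and 0.287 without the flank window richest in GATA1, so it stayed below 1. The odds between the lists fell to 2.61 after merging. They were 5.36 without that V gene window and 3.25 without that flank window. Both lists were also kept at a −log10 q of at least 2 or a fold of at least 4. The V gene part then had a codanin-1 overlap odds ratio of 0.0962 (0.00217 to 0.731) at that q. At that fold the ratio was 0.0484 (0.0011 to 0.393). The GATA1 overlap odds ratios, 0.3 (0.00616 to 2.85) and 0.228 (0.00515 to 1.70), had intervals that include 1. Few V gene peaks were left, 53 and 32 in the codanin-1 list and 9 and 20 in the GATA1 list. Each interval includes the main value of its list, 0.17 or 0.714, so a stronger depletion is not shown. Against the left flank alone, without these thresholds, the GATA1 odds ratio was 1.43. The share of codanin-1 members that overlap was 9.73% at that q and 21% at that fold. It was 17.9% in the V gene part and left flank together (48 of 268), with the right flank left out. It was 7.09% when 0.5 of both peaks had to overlap and 39.6% for partners within 1 kb. The matching GATA1 shares were 25.6%, 16%, 43.3% (55 of 127), 10.3% and 85.1%. For partners within 1 kb the whole lists had 10.5% (codanin-1) and 35.7% (GATA1), and the 3 Mb before the locus 52.6% and 70.3%. Shares of the whole lists under the other settings were not computed, so those values have no background to be read against. The spacing ratio of codanin-1 was 0.767 after merging. The width ratio was 0.556 at that fold for codanin-1 and 0.576 at that q for GATA1, where 9 GATA1 peaks of the V gene part were left. The cause was not tested. The GATA1 spacing ratio was 6.72 (0.17 to 131) at that q and 5.75 (0.59 to 56.6) at that fold, with intervals that include 1. No ratio whose main interval left out 1 changed its side of 1. No paired analysis was possible because there is only 1 library for each antibody, which also means that none could be left out. Depth is unknown, so the number of GATA1 sites of the V gene part that fell below the threshold cannot be given.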

Other observations

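Across the members, width said little of enrichment. Spearman's rho of width and fold was -0.01 over the 381 codanin-1 members and 0.17 over the 261 GATA1 members, while rho of fold and −log10 q was 0.85 and 0.91. Peaks of a list share its library and background, so these are descriptions.

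At the edges of the locus, the first codanin-1 peak inside started at 22005147 and the last one outside before it ended at 21997674, with fold enrichments of 3.33 and 2.91. At the BCR side the last codanin-1 peak inside ended at 23519939 (3.08-fold), and the next, from 23521606 to 23522567 (3.55-fold), spans the edge and has its midpoint outside. The first GATA1 peak inside started at 22003866 (3.90-fold) and the last ended at 23521963 (3.57-fold). Outside, the GATA1 peaks next to them had fold enrichments of 3.80 and 3.73.

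Codanin-1 peaks bordered the edges of the V gene part closely, with breaks from 22379352 to 22383778 at its start and from 23198420 to 23200579 at its end. For GATA1 the last peak before the V gene part ended at 22345537 and the first inside it started at 22385369. At the other end the last GATA1 peak inside ended at 23197499 and the next started at 23223215.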
